A study of Mus musculus with 6 samples.

Results

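Plet1, Clu, Anxa1 and 6 ligands of the EGF receptor (Areg, Ereg, Epgn, Hbegf, Tgfa and Btc) were read, by symbol, from a table of 35434 mouse genes, and all 9 were present. The libraries were made from total RNA of the large intestine of mice with inflammatory bowel disease (IBD) that had received regulatory T cells (Tregs), either control cells or cells treated with lenvatinib, an inhibitor of several receptor tyrosine kinases. The 6 libraries are titled int 3 or int 2, with 3 replicates each, and no label ties either title to one of the transfers. Every difference below is the level in int 3 less that in int 2, and neither group is assigned a treatment. The sources used here give no strain, no age and no way of inducing the disease. No label tells whether a group's replicates are different animals, and a p-value here therefore reflects library-to-library spread, which may be technical.

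When the lining of the gut is injured, epithelial cells next to the wound flatten, migrate over the gap and switch on a repair programme that in mice shares genes with the fetal intestine. Plet1, a surface protein, and Anxa1 (annexin A1), a phospholipid-binding protein that is also a pro-resolving ligand of formyl peptide receptors, are expressed in such cells in mice, and Clu (clusterin), a secreted chaperone, marks a rare mouse cell that restores crypts after damage. The EGF family ligands are made as membrane proteins, are cut free by metalloproteinases, chiefly ADAM17, and act on the EGF receptor and its ERBB relatives to drive migration, survival and division of epithelial cells.

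The 9 genes did not move as one. Of the 8 that could be tested, 4 rose in int 3 (Plet1, Ereg, Hbegf and Anxa1), 1 fell (Clu) and 3 did not pass the test (Areg, Tgfa and Btc), and Epgn was too low to test. With the int 2 libraries averaged to 1 sample, the log2 changes of the 8 were unchanged but their SE grew. For Plet1 the SE went from 0.82 to 1.43 and for Ereg from 0.15 to 0.27. The calls were then lost, in a fit with only 4 values and 2 residual degrees of freedom. Whether the calls depend on counting the int 2 libraries as 3 samples was therefore not tested. Among all 12525 genes tested, 15.3% passed, 8.64% as higher and 6.70% as lower in int 3. In counts this was 1082 higher and 839 lower, which turned to 1274 and 609 with TPM and to 773 and 1296 with an offset that equalised the epithelial markers. The median log2 change of the 8 tested genes was 0.62, and that of all tested genes was 0.03. A gene was tested when it reached FPKM 1 (fragments per kilobase per 1e6 fragments) in at least 3 libraries, and rose or fell when limma's test on log2(FPKM + 1) gave an adjusted p under 0.05. On this scale the log2 change of a weakly expressed gene comes out too small.

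Depth was even, at 34.0 to 35.1 M fragments (M, 1e6) per library, as read from the steps in the FPKM values. The 3 int 3 libraries lay further apart than the 3 int 2 libraries, with a median SD of log2(FPKM + 1) over the tested genes of 0.137 in int 3 and 0.0486 in int 2. Between 2 libraries of a group, a chi-square test on fragments gave 43.5 to 170 per degree of freedom in int 3 and 2.60 to 3.27 in int 2, where sampling noise alone gives 1. All 6 libraries therefore differed by more than sampling noise and entered the fit singly, which does not show that they came from separate animals. Int 3-2 and int 3-3 were the ends of this spread, and int 3-1 lay between them for 73.5% of the tested genes. Int 3-3 was the closest of the 3 to int 2 for Plet1 and Clu. Hoxb13, which in mice marks the distal end of the gut, had 146, 16.4 and 267 FPKM across int 3-1, int 3-2 and int 3-3, and 288, 285 and 288 FPKM across int 2. Of the other genes of this kind listed, Hoxd13 had 14.2, 0.286 and 26.4 FPKM in int 3 and 11.1, 10.1 and 9.80 FPKM in int 2, and Hoxa13 had 12.1, 10.1 and 15.3 FPKM in int 3 and 11.7, 11.6 and 10.6 FPKM in int 2. All 3 were lowest in int 3-2 and highest in int 3-3 within int 3, and none passed limma's test between the groups (adjusted p from 0.27 to 0.79). Epithelial markers were abundant in every library. Epcam stood at 638, 595 and 684 FPKM in int 3 and at 685, 700 and 681 FPKM in int 2. Within int 3 the markers were not all this even. Cdx2 stood at 50.5, 89.9 and 17.6 FPKM in int 3, the opposite order to Epcam, and at 38.6, 37.1 and 36.45 FPKM in int 2. Of the 12 epithelial markers listed 1 (Elf3) rose and 11 did not pass. In such bulk samples fewer cells of a type and less RNA per cell cannot be told apart.

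The 250 bases before the annotated start of Plet1 and Anxa1 are shown because both genes rose and are members of the repair programme, and those of Areg because it is the chromosomal neighbour of Ereg that did not pass. All are from RefSeq on the build GRCm38.p6, which is not the build of the deposited table (GRCm39). The coordinates are chr9:50494275-50494524 on the plus strand for Plet1, chr19:20390672-20390921 on the minus strand for Anxa1 and chr5:91139349-91139598 on the plus strand for Areg. Capitals mark matches, on either strand, to any of 4 motifs. The motif of AP-1, made of Fos and Jun factors, was searched as TGANTCA. That of TEAD factors was searched as GGAATG. That of STAT factors was searched as TTCNNNGAA. The TATA box was searched as TATAAA.
Plet1: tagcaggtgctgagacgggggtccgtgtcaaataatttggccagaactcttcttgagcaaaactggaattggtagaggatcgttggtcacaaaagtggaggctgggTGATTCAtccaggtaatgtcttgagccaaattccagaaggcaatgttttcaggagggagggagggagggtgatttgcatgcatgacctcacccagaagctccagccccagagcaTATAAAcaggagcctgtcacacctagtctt
Anxa1: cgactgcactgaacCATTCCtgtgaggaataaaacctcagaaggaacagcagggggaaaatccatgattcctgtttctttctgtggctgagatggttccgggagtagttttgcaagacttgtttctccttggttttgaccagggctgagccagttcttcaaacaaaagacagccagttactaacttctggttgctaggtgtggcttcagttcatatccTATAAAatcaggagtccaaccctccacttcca
Areg: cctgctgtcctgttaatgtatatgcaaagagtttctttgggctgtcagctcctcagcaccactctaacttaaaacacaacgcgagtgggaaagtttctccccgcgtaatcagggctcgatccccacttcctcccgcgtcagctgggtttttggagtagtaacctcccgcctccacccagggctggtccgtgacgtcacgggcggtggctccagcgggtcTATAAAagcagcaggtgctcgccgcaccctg

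The Plet1 window held 1 match to TGANTCA, which begins at -144 from the start, and a TATAAA at -30. The Anxa1 window held GGAATG, on the other strand, at -236 and a TATAAA at -32, and the Areg window held a TATAAA at -31. Over 32851 windows of this length in the same table, 6.75% held TGANTCA, 12.6% GGAATG, 7.02% TTCNNNGAA and 12.4% TATAAA. No match in the 3 windows overlapped another. These are matches of letters, which do not show that a factor binds there.

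**Figure D1:**
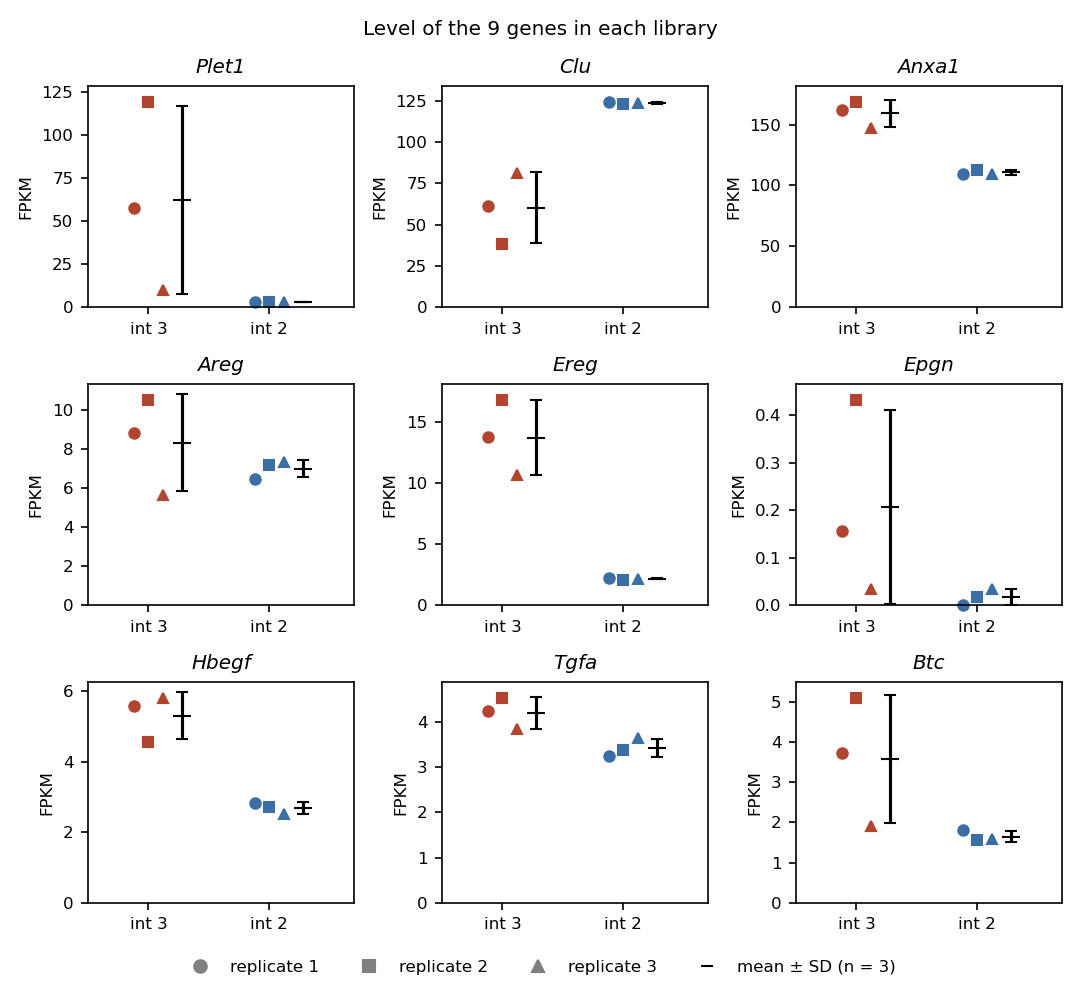
Each panel plots 1 gene, with FPKM on a linear axis from 0, the 3 int 3 libraries on the left and the 3 int 2 libraries on the right, and the mean ± SD of each group (n = 3) as a bar. Plet1 ran from 9.73 to 119 FPKM across int 3 while it lay near 3 FPKM in int 2, Clu lay lower in every int 3 library, and Areg overlapped between the groups.

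Plet1 was by far higher in int 3, and by very different amounts in its libraries. It stood at 57.9, 119 and 9.73 FPKM in int 3 (replicates 1, 2 and 3), against 3.10, 3.05 and 3.03 FPKM in int 2-1, int 2-2 and int 2-3. The lowest int 3 library was still above every int 2 library, and the highest was 12.2-fold above the lowest. These values rest on 3645, 7467 and 630 fragments in int 3 and on 196, 194 and 191 in int 2. The mean was 20.3-fold higher in int 3, and the log2 change was 3.38 (SE 0.82, limma adjusted p = 0.042). Without int 3-2 the log2 change was 2.63 and without int 3-3 it was 4.37, and limma's test was passed in both cases (adjusted p = 0.0317 and 0.000368). Without int 2-1, int 2-2, int 2-3 or int 3-1 it was not passed (limma adjusted p from 0.139 to 0.149). Plet1os, a noncoding gene that overlaps Plet1, stood at 1.94, 3.70 and 0.637 FPKM in int 3 (replicates 1, 2 and 3) and at 0.183, 0.285 and 0.131 FPKM in int 2. Whether strand was used in counting is not given in the sources used here, so fragments of Plet1 and Plet1os cannot be told apart.

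Clu went the other way. It stood at 61.3, 38.2 and 81.5 FPKM in int 3 (replicates 1, 2 and 3), against 124.1, 123.3 and 123.6 FPKM in int 2. The groups did not overlap, and the library with most Plet1, int 3-2, had the least Clu. The log2 change was -1.09 (SE 0.25, limma adjusted p = 0.036), and the mean in int 3 was 0.488 times that in int 2. The log2 change was -0.80 without int 3-2 and -1.33 without int 3-3. Limma's test was not passed without int 2-1, int 2-2, int 2-3 or int 3-1 (adjusted p from 0.113 to 0.130).

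Clu is also made by follicular dendritic cells, stromal cells of lymphoid follicles. Of 4 markers of these cells tested, 2 fell, the complement receptor Cr2 and the IgE receptor Fcer2a, which B cells share, and 2 did not pass. Among all tested genes 6.70% fell. Cr2 and Fcer2a, and 4 of the B cell markers, met the filter in all 3 libraries of int 2 only. Cr2 stood at 0.570, 0.0516 and 1.26 FPKM in int 3 (replicates 1, 2 and 3), against 3.15, 3.67 and 3.17 FPKM in int 2. All 6 B cell markers listed fell, and their summed level was 26.0, 4.70 and 42.0 FPKM in int 3 (replicates 1, 2 and 3), against 153, 156 and 149 FPKM in int 2. The summed level of the 4 follicular dendritic cell markers in the table was 46.8, 24.5 and 67.4 FPKM in int 3, against 59.6, 58.2 and 58.7 FPKM in int 2. Most of that sum was Cxcl13, at 38.4, 15.0 and 58.45 FPKM in int 3 and 45.8, 43.0 and 42.6 FPKM in int 2. Cxcl13 did not pass (limma adjusted p = 0.55). In int 3-3 this sum lay above all of int 2, whereas Clu lay below. Within int 3 both sums and Clu were lowest in int 3-2 and highest in int 3-3, an order shared by 23.9% of all tested genes. The adhesion molecule Madcam1, 1 marker of the follicular dendritic cell list, had the opposite order. The part of these cells in the difference of Clu was not tested.

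Anxa1, the most abundant of the 9 genes in int 3, rose by a small and even amount. It stood at 162, 168 and 147 FPKM in int 3 (replicates 1, 2 and 3), against 110, 113 and 110 FPKM in int 2. The groups were well apart, and within int 3 the highest library was 1.14-fold above the lowest. The log2 change was 0.52 (SE 0.06, limma adjusted p = 0.0044), and limma's test was passed after removal of any single library (adjusted p from 0.000703 to 0.0355). Macrophages and neutrophils also express Anxa1. Of 8 macrophage markers 5 rose and 3 did not pass, where 8.64% of all tested genes rose. The summed level of these markers was 175, 172 and 187 FPKM in int 3 (replicates 1, 2 and 3), against 118, 112 and 113 FPKM in int 2. Of 3 tested neutrophil markers 2 rose, the alarmins S100a8 and S100a9, which were tested only because of their int 3 values. The summed level of the 9 neutrophil markers, of which Elane was at 0 throughout, was 76.2 to 163 FPKM in int 3 and 39.7 to 40.4 FPKM in int 2. Most of that sum was Ly6g, at 106, 51.8 and 155 FPKM in int 3 and 38.9, 39.7 and 39.3 FPKM in int 2, which did not pass (limma adjusted p = 0.070). The sum therefore does not stand for the other markers, which were near 0 in int 2. S100a8 stood at 5.76, 10.5 and 3.86 FPKM in int 3, against 0, 0 and 0.224 FPKM in int 2. S100a9 stood at 6.88, 12.7 and 2.23 FPKM in int 3, against 0, 0.0554 and 0.0559 FPKM in int 2. Ly6g was lowest in int 3-2 and S100a8 and S100a9 were highest there, and Camp, below the filter, had less in every int 3 library than in int 2. Their part in the rise of Anxa1 was not tested. The formyl peptide receptor genes were scarce. Fpr2 stood at 0.769, 0.930 and 0.836 FPKM in int 3, against 0.0900, 0.269 and 0.136 FPKM in int 2, and all 5 genes listed were below the filter.

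Of the 5 ligands tested, Ereg had the largest log2 change. Ereg (epiregulin), which binds the EGF receptor and ERBB4, stood at 13.7, 16.8 and 10.6 FPKM in int 3 (replicates 1, 2 and 3), against 2.21, 2.08 and 2.17 FPKM in int 2. Every int 3 library was several times above every int 2 library. The log2 change was 2.20 (SE 0.15, limma adjusted p = 0.00076), the mean was 6.36-fold higher, and limma's test was passed after removal of any single library (adjusted p from 0.000113 to 0.00999). The values rest on 1939, 2360 and 1540 fragments in int 3 and on 314, 297 and 306 in int 2.

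Hbegf (heparin-binding EGF-like growth factor) rose too, to 5.56, 4.54 and 5.80 FPKM in int 3 (replicates 1, 2 and 3), against 2.84, 2.71 and 2.50 FPKM in int 2. Unlike Plet1 and Ereg it was lowest in int 3-2. The log2 change was 0.77 (SE 0.10, limma adjusted p = 0.0048), and limma's test was passed after removal of any single library (adjusted p from 0.000711 to 0.0353).

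Btc (betacellulin) stood at 3.74, 5.10 and 1.90 FPKM in int 3 (replicates 1, 2 and 3), against 1.81, 1.56 and 1.58 FPKM in int 2. All int 3 libraries were above int 2, but int 3-3 only just. The log2 change of 0.73 (SE 0.26) did not pass limma's test (adjusted p = 0.11), and passed it only without int 3-3 (log2 change 1.02, adjusted p = 0.00239). Tgfa (transforming growth factor alpha), a ligand of the EGF receptor in the normal gut epithelium, stood at 4.23, 4.53 and 3.84 FPKM in int 3, against 3.24, 3.39 and 3.64 FPKM in int 2. The groups lay close together without overlapping. The log2 change of 0.23 (SE 0.08) did not pass (limma adjusted p = 0.092, and 0.0243 without int 3-3). Of the 8 tested genes 6 lay wholly above int 2 in int 3, 1 wholly below and 1 overlapped, where 40.4% of all tested genes did not overlap (22.4% higher and 17.9% lower).

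Areg (amphiregulin), a ligand of the EGF receptor made by epithelium and by immune cells including Tregs and type 2 innate lymphoid cells, stood at 8.85, 10.5 and 5.63 FPKM in int 3 (replicates 1, 2 and 3), against 6.48, 7.22 and 7.32 FPKM in int 2. The groups overlapped, since int 3-3 was below all of int 2. The log2 change was 0.19 (SE 0.20, limma adjusted p = 0.55), and limma's test was passed only without int 3-3 (log2 change 0.41, adjusted p = 0.0155). Epgn (epigen) was scarcely detected, with 9, 25 and 2 fragments in int 3-1, int 3-2 and int 3-3 and 0, 1 and 2 fragments in int 2. That is 0.155, 0.431 and 0.0335 FPKM in int 3, against 0, 0.0170 and 0.0344 FPKM in int 2.

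**Figure D2:**
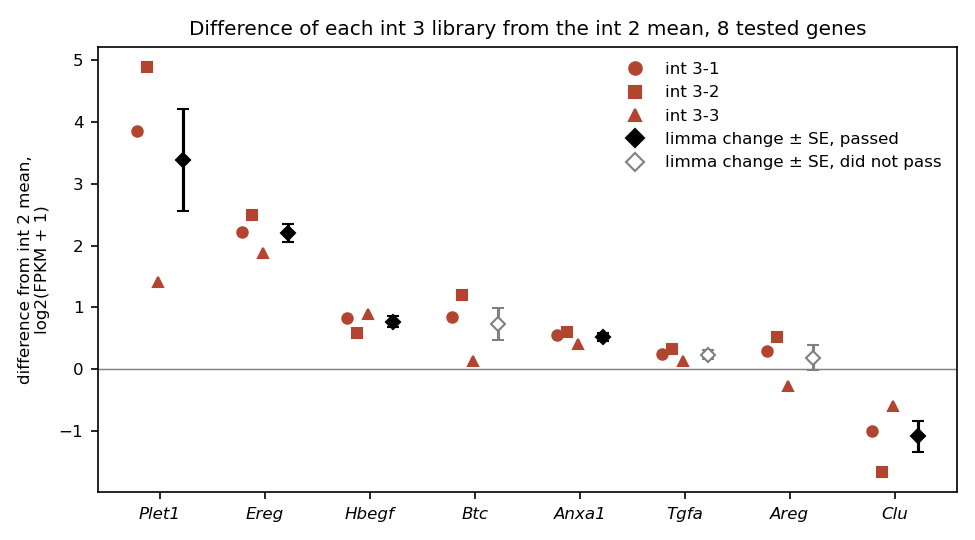
The difference of each int 3 library from the int 2 mean on the log2(FPKM + 1) scale is plotted for the 8 tested genes, with limma's change ± SE beside it (filled where it passed). The 3 int 3 libraries lay close together for Anxa1 and Hbegf and far apart for Plet1, where they ran from 1.40 in int 3-3 to 4.88 in int 3-2.

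In int 3, 7 of the 9 genes were highest in int 3-2 and lowest in int 3-3, and 2 (Clu and Hbegf) had the opposite order. Of all tested genes 49.6% had the order of the first 7 and 23.9% that of Clu and Hbegf. More than a 2-fold gap between int 3-2 and int 3-3 was seen for 3 of the 8 tested genes (Plet1, Clu and Btc) and for 8.97% of all tested genes. The SD of log2(FPKM + 1) within int 3 was 1.79 for Plet1, 0.544 for Btc, 0.541 for Clu and 0.411 for Areg, but 0.158 for Hbegf and 0.0970 for Tgfa. Within int 2 it was 0.0125 for Plet1 and 0.00467 for Clu.

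By level, int 3 ran from Anxa1 (159 ± 10.9 FPKM, SD, n = 3) over Plet1 (62.2 ± 54.7), Clu (60.3 ± 21.6), Ereg (13.7 ± 3.08), Areg (8.34 ± 2.49), Hbegf (5.30 ± 0.669), Tgfa (4.201 ± 0.348) and Btc (3.58 ± 1.604) to Epgn (0.207 ± 0.204). In that order Plet1 and Clu, Areg and Hbegf, and Tgfa and Btc overlapped between libraries. Int 2 ran from Clu (124 ± 0.404) over Anxa1 (111 ± 1.81), Areg (7.01 ± 0.457), Tgfa (3.42 ± 0.199), Plet1 (3.06 ± 0.0352), Hbegf (2.68 ± 0.170), Ereg (2.16 ± 0.0658) and Btc (1.65 ± 0.136) to Epgn (0.0171 ± 0.0172), with no overlap between neighbours. Ereg was thus the fourth of the 9 and the first of the ligands in int 3, and the seventh of the 9 in int 2.

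The mix of ligand transcripts differed accordingly. The 6 ligands summed to 36.3, 41.9 and 27.8 FPKM in int 3 (replicates 1, 2 and 3), against 16.6, 17.0 and 17.2 FPKM in int 2. Ereg made up 37.9%, 40.0% and 38.2% of that sum in int 3, against 13.4%, 12.3% and 12.6% in int 2. Areg made up 24.4%, 25.1% and 20.2% in int 3, against 39.1%, 42.5% and 42.5% in int 2. The share of Ereg was even across int 3 although the sum was not. Without Ereg the sum was 22.5, 25.1 and 17.2 FPKM in int 3, against 14.4, 14.9 and 15.1 FPKM in int 2. Egf itself was below the filter, at 0.366, 0.643 and 0.154 FPKM in int 3 and 0.717, 0.399 and 0.555 FPKM in int 2.

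**Figure D3:**
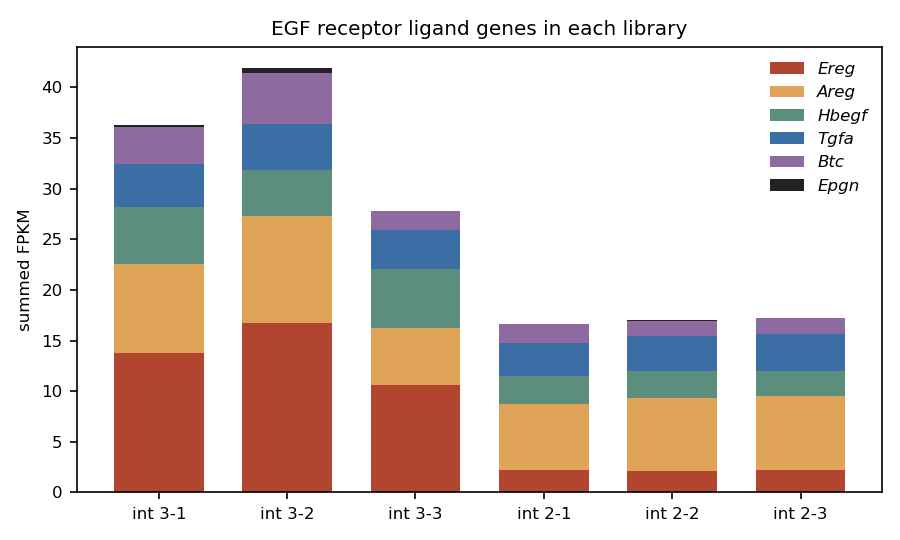
Stacked bars give the FPKM of the 6 ligand genes in each library, int 3 on the left and int 2 on the right, on a linear axis from 0. The int 3 bars reach 27.8 to 41.9 and the int 2 bars 16.6 to 17.2, and the Ereg segment at the foot accounts for 10.6 to 16.8 in int 3 and 2.08 to 2.21 in int 2.

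Epgn, Ereg, Areg and Btc are neighbours on chromosome 5, in this order, with no other protein-coding gene between them in RefSeq's annotation of GRCm38.p6. Within this block of ligand genes Ereg alone passed limma's test, and its differences from Areg and Btc were not tested. Mthfd2l, the protein-coding gene on the far side of Epgn and an enzyme of mitochondrial folate metabolism, stood at 3.25, 3.68 and 3.30 FPKM in int 3 and 2.89, 3.48 and 2.72 FPKM in int 2, with a log2 change of 0.13 (limma adjusted p = 0.36). Gm19610, a noncoding gene that overlaps Ereg, stood at 5.02, 5.85 and 3.49 FPKM in int 3 (replicates 1, 2 and 3) and at 3.31, 3.44 and 2.60 FPKM in int 2 (limma adjusted p = 0.11). Fragments it shares with Ereg cannot be told apart, nor those that Hbegf shares with the overlapping Gm41698, which was below the filter.

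None of the receptors of these ligands passed the test. Egfr, the EGF receptor, stood at 3.20, 3.16 and 3.03 FPKM in int 3 and at 2.95, 2.94 and 3.07 FPKM in int 2. Erbb2, its partner without a ligand, stood at 20.1, 15.7 and 24.1 FPKM in int 3 and at 18.2, 18.0 and 17.2 FPKM in int 2. Erbb3, a receptor of neuregulins, stood at 26.8, 19.4 and 31.7 FPKM in int 3 and at 24.1, 23.2 and 24.8 FPKM in int 2. All 3 overlapped between the groups and did not pass limma's test (adjusted p = 0.59, 0.54 and 0.77), and Erbb4 was at or near 0 in every library. Without int 3-2, 1 of these receptors, Erbb2, passed as higher.

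Of 4 tested genes of the list of ERBB receptors and other ERBB ligands 1 rose, where 8.64% of all tested genes rose. This was Nrg1 (neuregulin 1), a stromal ligand of Erbb3, at 1.41, 1.29 and 1.33 FPKM in int 3, against 0.101, 0.139 and 0.116 FPKM in int 2 (log2 change 1.07, SE 0.07, limma adjusted p = 0.00069). It met the filter only through its int 3 values.

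Of 12 tested genes that release or carry the ligands 2 rose and 10 did not pass, where 8.64% of all tested genes rose. Adam10 and Adam9, membrane metalloproteinases, rose by 0.35 and 0.38 on the log2 scale (limma adjusted p = 0.0060 and 0.035). Adam17, the main sheddase of these ligands, stood at 8.95, 9.40 and 7.995 FPKM in int 3 and at 8.69, 8.50 and 8.48 FPKM in int 2 (limma adjusted p = 0.79). Rhbdf2 (iRhom2), which brings ADAM17 to the cell surface, stood at 5.38, 6.65 and 4.54 FPKM in int 3 and at 4.27, 4.32 and 4.01 FPKM in int 2 (limma adjusted p = 0.13). Removal of a single library left 1 to 5 of the 12 genes passing.

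Of 19 tested genes that relay the receptor's signal 1 rose and 18 did not pass, where 8.64% of all tested genes rose. The 1 that rose was Stat3, a transcription factor that cytokines also activate, at 40.8, 38.1 and 43.7 FPKM in int 3, against 23.6, 22.01 and 22.3 FPKM in int 2 (log2 change 0.82, limma adjusted p = 0.0011). Without int 3-3, 7 genes of this list rose and 1 fell.

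Of 21 tested feedback and target genes of the pathway through ERK, 4 rose, 2 fell and 15 did not pass. The shares among all tested genes were 8.64% higher and 6.70% lower. Among the 4, Spry4, a feedback inhibitor of the pathway, met the filter only through its int 3 values. The immediate early genes Fos, Egr1 and Ier3 rose by 0.41, 0.77 and 1.23 on the log2 scale (limma adjusted p = 0.0026, 0.0045 and 0.0072). Many signals other than the EGF receptor induce these 3. Etv4, a transcription factor induced by ERK signalling, fell by 0.81 and Lrig3, a relative of the receptor antagonist Lrig1, fell by 0.42 (limma adjusted p = 0.0096 and 0.011). Removal of a single library left 3 to 10 genes of the list passing, the fewest without int 2-1, int 2-2 or int 2-3 and the most without int 3-3. The median log2 change of the list was 0.06, against 0.03 for all tested genes.

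Of 27 other tested genes of wound repair and fetal-like epithelium, 10 rose and 17 did not pass, where 8.64% of all tested genes rose. The median log2 change of the list was 0.48, against 0.03 for all tested genes. Msln and Sprr1a, both among the 10, met the filter only through their int 3 values, and without them 8 of 25 genes rose and the median was 0.41. Ly6a (Sca-1), a surface protein of fetal-like repair epithelium in mice that is also induced by interferon and found on lymphocytes and endothelium, stood at 613, 447 and 764 FPKM in int 3, against 183, 187 and 179 FPKM in int 2 (log2 change 1.69, limma adjusted p = 0.0031). Anxa8, an annexin, rose by 1.39 on the log2 scale (limma adjusted p = 0.0011). Within int 3, 6 of the 10 were highest in int 3-2, the library with most Plet1, such as Plaur, the urokinase receptor, at 6.11, 9.97 and 4.59 FPKM. The other 4, Ly6a and Anxa8 among them, were lowest there.

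Of the 10 that rose, Msln is also a mesothelial marker, and the summed level of 5 mesothelial markers was 7.25, 9.25 and 6.47 FPKM in int 3 (replicates 1, 2 and 3), against 1.37, 0.844 and 1.13 FPKM in int 2. The part of mesothelium in the rise of Msln was not tested. Of 8 squamous epithelial markers none reached the filter, and their sum was at most 1.03 FPKM in int 3 and 0.676 FPKM in int 2. Without int 2-1, int 2-2, int 2-3 or int 3-1, 5, 5, 6 and 5 of the 27 genes rose, and without int 3-3, 17 rose and 2 fell.

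Genes listed as targets of YAP and TEAD factors, a pathway active in repair epithelium, were split. The list also holds Yap1, Wwtr1 and Tead1, which are such factors themselves and did not pass. Of 24 tested, 4 rose, 2 fell and 18 did not pass, where 8.64% of all tested genes rose and 6.70% fell. With an offset that equalised the epithelial markers 3 rose and 5 fell, and with quantile normalization 4 rose and 5 fell. Myof and Dock5 rose by 0.62 and 0.45 on the log2 scale, F3 (tissue factor), which is also in the repair list, rose by 0.68, and Gadd45a and Foxf2 fell by 0.40 and 0.26 (limma adjusted p from 0.0031 to 0.034). Without int 2-1, int 2-2 or int 3-1, 2 rose and 1 fell, and without int 3-3, 13 rose and 5 fell.

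Of 13 tested crypt stem cell genes 2 fell and 11 did not pass, where 6.70% of all tested genes fell. Ascl2, a transcription factor that maintains these stem cells, stood at 3.85, 3.72 and 3.33 FPKM in int 3, against 7.89, 8.55 and 9.17 FPKM in int 2, and Axin2, a Wnt target, at 4.93, 5.26 and 4.69 FPKM in int 3, against 9.83, 9.79 and 9.15 FPKM in int 2 (limma adjusted p = 0.00097 for both). Lgr5, the receptor that marks the stem cells, stood at 1.54, 2.61 and 0.587 FPKM in int 3, against 3.13, 3.48 and 3.84 FPKM in int 2 (limma adjusted p = 0.091). The groups did not overlap for any of these 3 genes, and 17.9% of all tested genes likewise lay wholly lower in int 3. Ascl2 and Axin2 were named because they passed, and Lgr5 met the filter in all 3 libraries of int 2 only. Without int 3-2, 4 genes of the list fell, and without int 3-3, 3 rose and 4 fell.

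**Figure D4:**
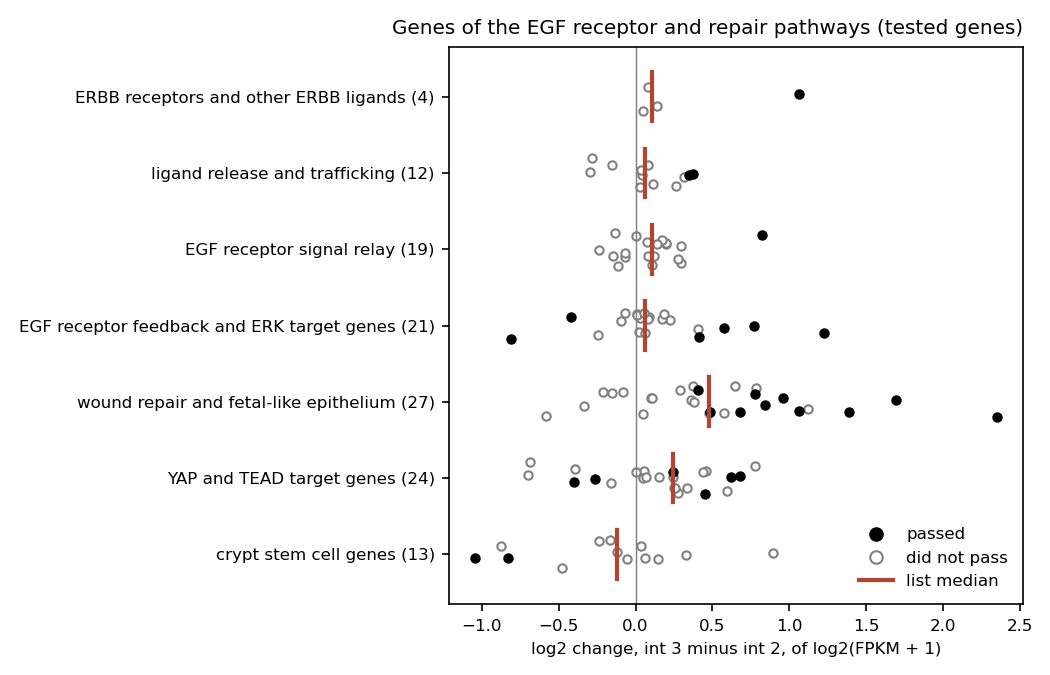
Each point is 1 tested gene of a pathway list, placed by its log2 change (int 3 minus int 2), filled where it passed, with the list median as a vertical bar and the number of tested genes in brackets. The repair and fetal-like list has its median at 0.48, and the receptor, release, relay and feedback lists have theirs between 0.06 and 0.11.

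Of 9 markers of type 2 innate lymphoid cells and type 2 T cells, which can supply Areg as epithelium can, 7 were below the filter. The 2 tested were Areg itself and 1 that rose. This was Il1rl1, the IL-33 receptor, at 3.10, 4.83 and 1.39 FPKM in int 3, against 0.282, 0.276 and 0.283 FPKM in int 2 (log2 change 1.59, limma adjusted p = 0.020). Il1rl1 met the filter only through its int 3 values. Il17rb, the IL-25 receptor, stood in int 3 at 0.697, 0.485 and 0.512 FPKM, below 1.27, 0.930 and 1.32 FPKM in int 2, and Gata3 stood at 0.194, 0.367 and 0.109 FPKM in int 3 and 0.454, 0.474 and 0.344 FPKM in int 2, both untested. Il13 and Il4 were at 0 in all of int 3 and at most 0.144 FPKM in int 2. Il1rl1 had the same order within int 3 as Areg, and its part in the level of Areg was not tested.

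The genes whose profiles lay closest to each member were found by the Euclidean distance between log2(FPKM + 1) values, less the int 2 mean, over the 6 libraries. Closest to Plet1 was Hp (haptoglobin), at a distance of 0.399, with 17.7, 35.1 and 1.68 FPKM in int 3 (replicates 1, 2 and 3). In int 2 Hp stood at 0.0434, 0.0432 and 0.0218 FPKM. Its mean was 503-fold higher in int 3, against 20.3-fold for Plet1, a gap that the 1 added to FPKM shrinks. Next came Sptssb, a subunit of the enzyme that starts sphingolipid synthesis (1.13), and Myl7, a myosin light chain (1.25). Hp, Sptssb and Myl7 met the filter in all 3 libraries of int 3 only. Closest to Clu were Slc26a3, the chloride and bicarbonate exchanger of surface colonocytes (0.105), Coq8a, of coenzyme Q synthesis (0.117), and Cd3e, of the T cell receptor complex (0.131).

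Closest to Ereg were the interferon-induced genes Ido1 (0.284), Isg15 (0.291) and Cxcl9 (0.328). Anxa1 lay closest to Eno1, a glycolytic enzyme (0.064), H6pd and Nampt, and Hbegf to Gna14 (0.133), the macrophage gene Cd68 (0.138) and Nr1d2. Areg lay closest to Pcbp3 (0.063), Ndufaf4 and Ppm1e, Tgfa to Fbxw8 (0.043), Pdzd11 and Pias3, and Btc to Mmp28, a matrix metalloproteinase (0.085), Dnajc10 and Exoc3l2.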

How the data were processed

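RNA of 6 large intestine libraries was measured as gene FPKM, a unit taken from the name of the deposited table and its values. The submitters' processing notes name GRCm39 as the build; aligner, counter, annotation and strand handling: not given in the sources used here. Columns were tied to samples by title. The members and gene lists were chosen with earlier results of these data known. The 12525 genes that reached FPKM 1 in 3 or more libraries were fitted, as log2(FPKM + 1), by limma (version 3.58.1, under R version 4.3.3; eBayes with trend, two-sided, Benjamini-Hochberg over all tested genes, threshold 0.05). The fit was also run on simulated data in which both groups had the same spread. The real groups do not, so that run does not test the calls under unequal spread. FPKM values step by 1 fragment, which gave library totals and whole fragments for 99.89% of tested genes (12511, tolerance 0.01 fragments). Libraries of a group were compared by chi-square over genes with 20 or more fragments in a pair. Named were all members, of each of 8 pathway lists the 3 passing genes with the smallest p per direction, 9 genes fixed by name and the 3 genes closest to each member; Hoxb13, Hoxd13, Hoxa13, Mthfd2l, Spry4, Msln, Sprr1a, Plaur, the genes overlapping a member and the marker genes given by value were named after their values were seen. Some genes that this rule names are not reported here. Alternatives were pseudocounts 0.1 and 0.01, no filter, TPM, median-of-ratios and quantile scaling, an epithelial offset, the replicate number as a block, int 2 averaged to 1 sample, each library left out and, added after seeing the data, limma voom on whole fragments. Figures used Python 3.11.15 and matplotlib 3.10.9.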

Additional observations from a re-analysis of the deposited data

How the results depend on the processing

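In limma's test 1921 genes passed, 1082 higher and 839 lower in int 3, and 5 of the 8 tested members (4 higher, 1 lower). The member count was 3 without a filter. With the replicate number as a block 889 genes and 3 members passed, Plet1 and Clu being lost (adjusted p = 0.0636 and 0.0596). No label says whether the numbers pair the samples. Deviations of same-numbered libraries correlated at -0.0147, 0.0041 and -0.0215, and not every library correlated best with its own number. These correlations cannot decide the question, because the int 2 libraries differed so little (median SD 0.0486, against 0.137 in int 3). With int 2 averaged to 1 sample the members' log2 changes stayed the same and the calls were lost. The SE rose, for Clu from 0.25 to 0.44, and only 4 values and 2 residual degrees of freedom remained. Which of these lost the calls was not tested. Voom on the fragments of all 6 libraries called 1879 genes. Leaving out 1 library gave 615 to 4913 genes and 3 to 8 members, the most without int 3-3. Ereg, Anxa1 and Hbegf passed under 15 of 16 alternatives each (not with int 2 averaged), Plet1 under 8 and Clu under 9. Plet1 was not called by voom (adjusted p = 0.162). Every tested member kept its direction under all of these. At this depth Epgn, with 0 to 25 fragments, cannot be compared.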
